A study of Mus musculus with 4 samples.

Results

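The genes described here encode the subunits of the mitochondrial oxidative phosphorylation system, with a few of their assembly factors. They were the rows of the count table whose symbol starts with Nduf followed by a, b, c, s or v and a digit, with Uqc, with Cox and a digit from 4 to 8, with Atp5 or with mt-, together with Sdha, Sdhb, Sdhc and Sdhd. This rule found 100 of 31053 rows, of which 87 belong to nuclear genes and 13 to the protein-coding genes of the mitochondrial genome (mt- genes). The symbol Atp5o stands on 2 of the nuclear rows, so that 86 nuclear symbols were counted. The rule used names only, and no measured value. Of the 100 rows, 94 had enough UMIs (unique molecular identifiers, each standing for 1 captured mRNA molecule) to be tested. The 6 others were Ndufa4l2, Cox4i2, Cox7b2, Cox8b, Cox8c and the other row of Atp5o.

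Oxidative phosphorylation makes ATP at the inner mitochondrial membrane. Complex I takes electrons from NADH and complex II from succinate, complex III hands them on to cytochrome c, complex IV gives them to oxygen, and complex V, the ATP synthase, uses the resulting proton gradient. Complexes I, III, IV and V are built from subunits of both genomes, while complex II is wholly nuclear-encoded, so the nuclear and the mitochondrial genes must supply parts of the same machines. In macrophages the balance between respiration and glycolysis is known to shift with activation, and hypoxia-inducible factors (HIF) are known to act on some of the subunits.

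BM macrophages were grown with M-CSF from the bone marrow of C57BL/6J mice. The methods give an age of 4 to 6 weeks, and the figure legend of these experiments gives 4 weeks. They were co-cultured for 16 to 18 h with RM1 cells, a mouse prostate cancer line, which had been made apoptotic by UV light and labelled with CFSE. Flow sorting gave F4/80+CFSE+ cells (efferocytic) and F4/80+ cells without CFSE (non-efferocytic). In each of 2 experiments 1 library of each group was sequenced with the 10x 3′ chemistry, so each group had 2 libraries. The methods describe both groups as sorted after the co-culture, but the non-efferocytic cells are elsewhere called macrophages alone, so whether they had met RM1 cells is not clear from the sources used here. RM1 cells are murine, so a UMI from engulfed RM1 material cannot be told apart from one of the macrophage. The study calls the 2 experiments independent and gives a minimum of mice per group for its macrophage experiments in general. The sources used here do not say whether the 2 experiments used different mice. The p-values measure only the spread between these libraries.

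The filters of the study (at least 200 genes and 1000 UMIs, at most 10% mt- UMIs) were applied here to all barcodes, which left 6695 to 13411 cells per library with 101216659 to 155224183 UMIs. These are more cells than the study kept in every library. With a cell calling rule like that of Cell Ranger added, 6158 to 10615 cells remained and 43 nuclear members rose (18.9% of all genes). Efferocytic cells held more UMIs, with means of 18670.3 and 18461 per cell, against 12224 and 10316 in the non-efferocytic libraries. In Experiment 2 the non-efferocytic library differed from the rest by its 36048 barcodes of 500 to under 1000 UMIs, against 1048 to 2046 in the others. The libraries of Experiment 2 shared 118 cell barcodes (1.40% of the smaller library), and the other pairs 14 to 23. Of 11 macrophage markers, 1 rose and 5 fell in efferocytic cells. Their summed level was 41364 and 35615 CPM (counts per 1000000 UMIs of the library's cells) in the non-efferocytic and 33088 and 25154 CPM in the efferocytic libraries of Experiments 1 and 2, and Adgre1, which encodes F4/80, was present at 350 to 525 CPM. All 9 neutrophil-lineage markers fell, from sums of 2757 and 3031 CPM to 878 and 645 CPM, as did 7 of 8 mesenchymal markers, from 157 and 131 CPM to 49.4 and 55.7 CPM. The 8 epithelial markers, which RM1 cells could express, summed to 0.573 and 10.96 CPM in the non-efferocytic libraries. In the efferocytic libraries they summed to 0.120 and 9.03 CPM, and Krt8 had no UMI in either library of Experiment 1. The study lists RM1 as a fibroblast-like line, so low epithelial markers do not show how much RM1 RNA was present. The 5 erythroid markers summed to 0.020 and 0.032 CPM in Experiment 1 and to 48.2 and 51.5 CPM in Experiment 2, in the order non-efferocytic and efferocytic.

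Nuclear-encoded members of every complex were more often higher than lower in efferocytic BM macrophages. Of 81 tested, 45 rose and 1 fell (edgeR quasi-likelihood test with the experiment as a block, Benjamini-Hochberg adjusted p under 0.05), where 19.9% of all 13869 genes tested rose and 19.0% fell. Their median log2 fold change was 0.34, against -0.02 over all genes and 0.09 over genes of at least 10 CPM. The 35 others did not pass the test, and 75 of the 81 had a log2 fold change above 0, where 48.3% of all genes did. Over the 77 of at least 10 CPM, 43 rose and none fell, where 29.9% of the 7097 genes of that level rose and 14.5% fell. The changes were small: the largest was 0.77 on the log2 scale. Log2 fold changes of the fit are TMM-scaled and CPM are not, so a fold change can exceed the CPM ratios of both experiments. Values given as per cell are log2 fold changes of the same fit scaled to UMIs per cell, a scale on which the median of all genes is 0.60. The calls depended on the libraries and the fit: with non-efferocytic library 1 or 2 left out no nuclear member rose in the edgeR test (28 and 34 had an unadjusted p under 0.05), but neither did any other gene (0.0% of all genes in both fits). Without efferocytic library 1 or 2, 20 and 13 members rose, where 11.5% and 4.44% of all genes did. Without the experiment block 24 rose (9.27% of all genes), with DESeq2 49 rose (14.2%), with genes under 10 CPM removed before scaling 28 rose (20.8% of 7097), and with 10% of UMIs removed as free RNA 21 rose (9.98%).

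The experiments could also be read one by one, without a fit, from the CPM ratio of efferocytic to non-efferocytic cells. It was above 1 in both experiments for 58 of 81 nuclear members (28.5% of all genes tested), below 1 in both for 8 (51.8%) and of opposite sign for 15 (19.5%). Of the 77 members of at least 10 CPM, 55 were above 1 in both (38.0% of genes of that level). Members were above 1 in 71 cases in Experiment 1, where 33.4% of all genes were, and in 60 cases in Experiment 2, where 43.1% were. Both efferocytic libraries exceeded both non-efferocytic ones for 53 members (22.2% of all genes), and lay below both for 7 (44.7%).

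Summed over the nuclear members, the level was 23000.2 CPM in non-efferocytic cells, against 27301 CPM in efferocytic cells of Experiment 1, and 24546 and 26772 CPM in Experiment 2. The log2 ratios were 0.25 and 0.13. The increase was thus present in both experiments and smaller in Experiment 2, a difference that was not tested. Complex I summed to 7159 and 8566 CPM in Experiment 1 and to 7745 and 8494 CPM in Experiment 2 (log2 ratios 0.26 and 0.13). Complex II, the smallest, went from 494 to 559 CPM and from 499 to 534 CPM (0.18 and 0.10). Complex III went from 2714 to 3104 CPM and from 2980.4 to 3135 CPM (0.19 and 0.07). Complex IV went from 6366 to 7521 CPM and from 6509.5 to 6957 CPM (0.24 and 0.10), and complex V from 6268 to 7550.1 CPM and from 6812 to 7652 CPM (0.27 and 0.17). All of the nuclear sums were higher in efferocytic cells in both experiments.

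**Figure D1:**
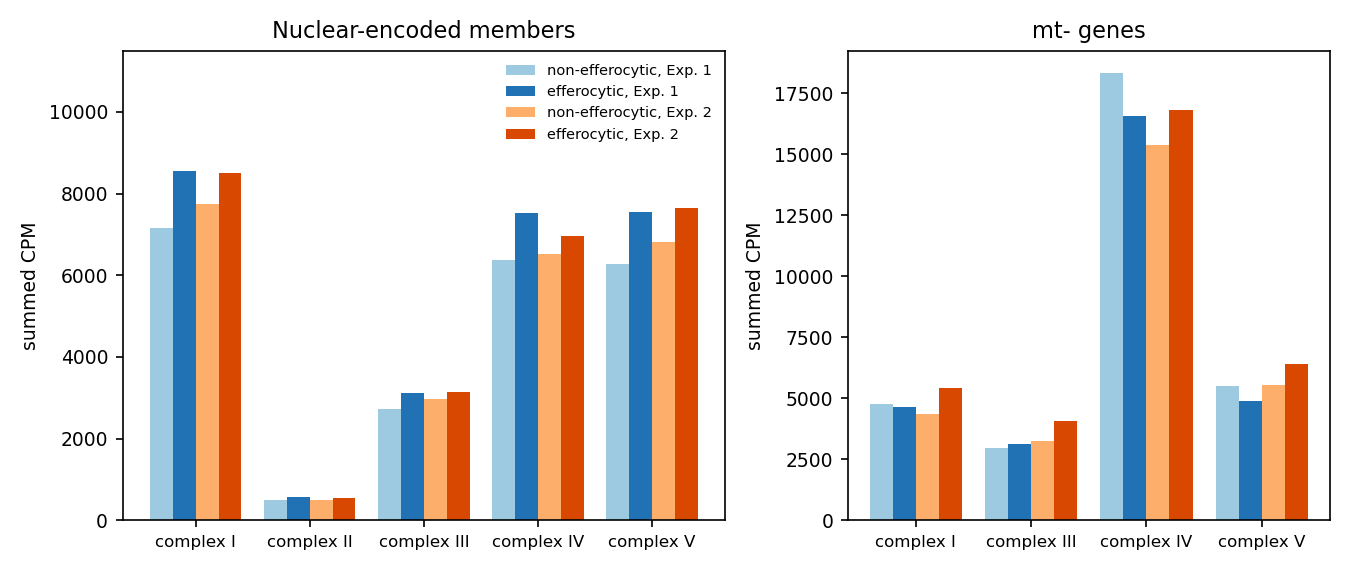
Summed CPM of the nuclear-encoded members (left) and of the mt- genes (right) of each complex, with 1 bar for each of the 4 libraries. The efferocytic bar exceeded its non-efferocytic partner in every nuclear complex, while the mt- sums of complexes I, IV and V were lower in Experiment 1 and higher in Experiment 2.

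Complex I had 36 tested nuclear members, of which 20 rose and 16 did not pass the test, with a median log2 fold change of 0.32. By name series, 8 of 13 Ndufa, 4 of 10 Ndufb, 1 of 2 Ndufc, 5 of 8 Ndufs and 2 of 3 Ndufv genes rose. Of genes of at least 10 CPM, a level that all 36 reached, 29.9% rose. The series are short, and their shares were not tested. Ndufa12, an accessory subunit next to the NADH-oxidising arm (chr10:94198720-94221443, plus strand, GRCm38), showed the largest change of all members. Its level was 96.0 and 106 CPM in the non-efferocytic libraries of Experiments 1 and 2, and 148 and 173 CPM in the efferocytic ones. The efferocytic libraries thus lay well above both others (log2 fold change 0.77 ± 0.08 SE, edgeR adjusted p = 4.7e-04). Ndufs6, a zinc-binding accessory subunit of the same arm, went from 153 and 159.8 CPM to 221 and 219 CPM (0.60 ± 0.09, edgeR adjusted p = 0.0021). Ndufs8, a core iron-sulphur subunit, which with Ndufa12 belongs to a gene list the study drew from these libraries, rose by 0.38 ± 0.08 (edgeR adjusted p = 0.0081), so their increase is not independent evidence.

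The 3 nuclear complex I members of highest level changed less than Ndufa12 and Ndufs6. Ndufa4, which was first assigned to complex I and is now counted with complex IV, stood at 559 and 657 CPM in non-efferocytic cells, against 749.7 and 751 CPM in efferocytic cells and rose (0.42 ± 0.12, edgeR adjusted p = 0.029). Ndufa2, an accessory subunit, had 414 and 444 against 487 and 485 CPM and missed the threshold (0.29, edgeR adjusted p = 0.064). Ndufa13, a membrane-arm accessory subunit also known as GRIM-19, had 376 and 446 against 421 and 430.1 CPM, and its groups overlapped (0.16, edgeR adjusted p = 0.28).

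In complex II, Sdha, Sdhc and Sdhd rose and Sdhb did not pass the test, where 29.9% of genes of at least 10 CPM rose. Sdhc, a membrane anchor (chr1:171127165-171150603, minus strand, GRCm38), went from 85.6 and 83.6 CPM to 111 CPM in both efferocytic libraries (0.50 ± 0.08, edgeR adjusted p = 0.0025). Sdhd, the other anchor, went from 102 and 103 to 119 and 113 CPM (0.29 ± 0.09, edgeR adjusted p = 0.030), and Sdha, the flavoprotein that oxidises succinate, from 111 and 104 to 125 and 123 CPM (0.31 ± 0.08, edgeR adjusted p = 0.020). Both efferocytic libraries lay above both others for these 3 genes, as they did for 22.2% of all genes. The iron-sulphur subunit Sdhb had 195 and 208 CPM in non-efferocytic cells, against 203 and 187 CPM in efferocytic cells, so its experiments pointed in opposite directions (0.06, edgeR adjusted p = 0.68). Complex II thus rested on 3 small changes, and 1 of them passed the test without the block.

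Complex III had 11 nuclear members, of which 6 rose and 5 did not pass the test (median 0.27), where 29.9% of genes of at least 10 CPM rose. Uqcc2, an assembly factor that helps cytochrome b into the complex (chr17:27122663-27133916, minus strand, GRCm38), rose most, from 105 and 124 CPM to 165 and 196 CPM (0.76 ± 0.09, edgeR adjusted p = 5.6e-04). Uqcrq, a small subunit, went from 318 and 359.9 CPM to 436 and 447 CPM (0.49 ± 0.11, edgeR adjusted p = 0.0090). Uqcr11 and Uqcrb, further small subunits and among the most abundant nuclear members of the complex, also rose (0.37 and 0.36, edgeR adjusted p = 0.033 and 0.038). The most abundant nuclear member, the hinge protein gene Uqcrh (chr4:116066965-116075071, minus strand, GRCm38), went the other way in CPM, with 686 and 677 in non-efferocytic and 578 and 497 in efferocytic cells. Its groups did not overlap, but 44.7% of all genes lay lower in this way, and it did not pass the test (-0.24, edgeR adjusted p = 0.14, and 0.38 per cell). In addition, 2 pseudogenes named after it are annotated, whose reads could be confused with its own.

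Complex IV, cytochrome c oxidase, had 14 tested nuclear members, of which 7 rose, 1 fell and 6 did not pass the test (median 0.35). Of all genes 19.9% rose and 19.0% fell, and of genes of at least 10 CPM 29.9% and 14.5%. Cox7b, a small structural subunit (chrX:106015700-106022450, plus strand, GRCm38), rose most, from 198 and 186 CPM to 316 and 276 CPM (0.73 ± 0.10, edgeR adjusted p = 0.0012). Cox6a1, the common form of subunit VIa, went from 217 and 209 to 299 and 290.4 CPM (0.58 ± 0.09, edgeR adjusted p = 0.0026). The most abundant nuclear members did not pass the test. Cox4i1, the common form of subunit IV, had 1219 and 1199.6 CPM in non-efferocytic cells, against 1455 and 1309.8 CPM in efferocytic cells (0.30, edgeR adjusted p = 0.099). Cox8a had 894 and 987 against 897 and 909.8 CPM (0.05, edgeR adjusted p = 0.76), and Cox7c 743 and 763 against 814 and 736 CPM (0.15, edgeR adjusted p = 0.36), so both overlapped between the groups.

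Complex V had 16 tested nuclear members, of which 9 rose and 7 did not pass the test, where 29.9% of genes of at least 10 CPM rose. Its median was the highest of the complexes (0.41). Atp5k, subunit e of the membrane part, went from 319.9 and 335 CPM to 437 and 465 CPM (0.57 ± 0.10, edgeR adjusted p = 0.0035). Atp5e, the epsilon subunit and the most abundant nuclear member, went from 841 and 928 CPM to 1113 and 1049.8 CPM (0.40 ± 0.13, edgeR adjusted p = 0.041). Atp5l, subunit g, had 769 and 858 against 965 and 925 CPM and missed the threshold (0.32, edgeR adjusted p = 0.073). Reads of Atp5k and Atp5l could be shared with annotated pseudogenes (1 and 2 named after them).

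**Figure D2:**
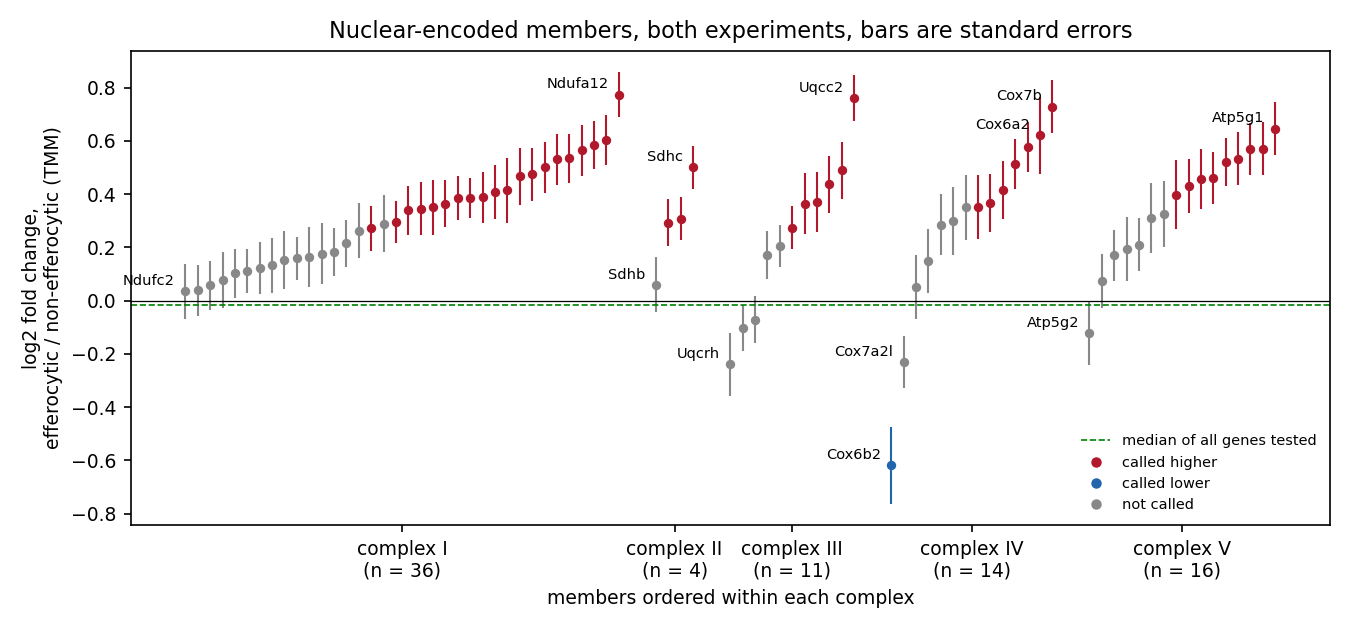
Log2 fold change of each of the 81 tested nuclear members (efferocytic over non-efferocytic, TMM scaling), ordered within each complex and coloured by call. Bars are standard errors derived from the test statistic. Most points lie above the dashed median of all genes at -0.02, Ndufa12, Uqcc2, Cox7b and Atp5g1 lead their complexes, and Cox6b2 alone was called lower.

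Several complex IV and V subunits exist in alternative forms, and these did not move alike. The c subunit of the ATP synthase, which forms the rotating ring, is encoded by Atp5g1, Atp5g2 and Atp5g3, whose precursors differ while the mature protein is the same. Atp5g1 rose from 236 and 289.6 CPM to 349 and 412 CPM (0.65 ± 0.10, edgeR adjusted p = 0.0021). Atp5g3 rose from 297 and 303 CPM to 401 and 404 CPM (0.53 ± 0.10, edgeR adjusted p = 0.0046). Atp5g2, the most abundant of the 3, instead had 793 and 866 CPM in non-efferocytic cells, against 722 and 692 CPM in efferocytic cells and did not pass the test (-0.12, edgeR adjusted p = 0.45, and 0.50 per cell). Its share of the UMIs of the 3 genes, which no scaling of libraries can move, was 59.8% and 59.4% in non-efferocytic and 49.0% and 45.9% in efferocytic cells, so the groups did not overlap. The Atp5g2 to Atp5g1 ratio changed by -0.70 and -0.83 on the log2 scale in Experiments 1 and 2, with 95% counting intervals of -0.72 to -0.69 and -0.85 to -0.82. Intervals here and below cover counting error only.

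Stretches of 120 bases before the RefSeq starts of these genes are shown because their changes differed between forms of the same protein. They are from the RefSeq promoter table (GRCm38.p6), all on the minus strand, and lie before the RefSeq start and outside the GENCODE exons of the gene. To stay outside these exons, the nearest 39, 80 and 0 bases before the start were skipped for Atp5g1, Atp5g2 and Atp5g3. The stretches thus lie at unlike distances from the start. For Atp5g2 a further GENCODE transcript starts upstream, at base 102672352, so that its stretch lies in an intron of that transcript, while the other 2 lie outside the annotated gene. Capitals mark ACGTG, the core letters of the HIF motif, on either strand.
Atp5g1, chr11:96075671-96075790: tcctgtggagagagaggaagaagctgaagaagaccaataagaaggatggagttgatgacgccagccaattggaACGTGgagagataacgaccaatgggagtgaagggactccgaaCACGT
Atp5g2, chr15:102671128-102671247: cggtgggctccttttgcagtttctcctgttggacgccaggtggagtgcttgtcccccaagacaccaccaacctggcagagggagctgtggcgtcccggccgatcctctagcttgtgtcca
Atp5g3, chr2:73911327-73911446: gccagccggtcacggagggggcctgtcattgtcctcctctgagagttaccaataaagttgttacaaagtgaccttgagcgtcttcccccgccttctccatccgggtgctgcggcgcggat

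The stretch of Atp5g1 holds the letters in 2 places and the other 2 stretches, at other distances from the start, hold none. The wider window of 250 bases before to 50 bases after the RefSeq start, alike for all 3 genes, holds them in each. Over the 69 tested nuclear members found in the table (of 81), 27.5% of such windows held ACGTG on either strand, against 28.8% of 10690 tested genes. GCATGCG, the core of the motif of nuclear respiratory factor 1 (NRF1), a known regulator of respiratory genes, was held by 15.9% of the members and 7.04% of the genes. CCGGAAG, of GABPA and other ETS factors, was held by 23.2% and 19.6%, and ATGGCGG, of YY1, by 14.5% and 9.11%. The NRF1 letters were as common among members that did not pass the test (5 of 29) as among those that rose (6 of 39), and these counts describe letters and not binding.

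Subunit VIIa has 3 related genes. Cox7a2, the form found in most tissues, rose from 447 and 482 CPM to 556 and 555 CPM (0.37 ± 0.11, edgeR adjusted p = 0.031), and the muscle form Cox7a1, at 7.88 to 12.4 CPM, rose as well (0.51 ± 0.09, edgeR adjusted p = 0.0042). Cox7a2l, known for a role in joining complexes III and IV and carried by C57BL/6J mice in a shortened form (chr17:83501918-83517330, minus strand, GRCm38), had 334 and 304 CPM in non-efferocytic cells, against 272 and 234 CPM in efferocytic cells. Its groups did not overlap, as for the 44.7% of all genes that lay lower in this way, and it did not pass the test (-0.23, edgeR adjusted p = 0.097, and 0.39 per cell). For 100 UMIs of Cox7a2 there were 74.9 and 63.1 UMIs of Cox7a2l in non-efferocytic and 48.9 and 42.2 in efferocytic cells, a log2 change of -0.61 and -0.58 (95% counting intervals -0.64 to -0.59 and -0.60 to -0.56). The pair thus shifted by a similar amount in both experiments.

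The tissue-restricted forms of subunit VI were of low level. Cox6b2, the testis form, was the only nuclear member to fall, from 3.70 and 2.92 CPM to 2.38 and 1.66 CPM (-0.62 ± 0.14, edgeR adjusted p = 0.012), a call that was lost with DESeq2 (adjusted p = 0.077) and whose log2 fold change per cell was -0.0021. The common form Cox6b1 rose from 629 and 632 CPM to 799 and 699 CPM (0.35 ± 0.12, edgeR adjusted p = 0.049). Cox6a2, the muscle form, rose at 2.27 to 4.05 CPM (0.62 ± 0.15, edgeR adjusted p = 0.012), in the same direction as Cox6a1. Cox6a2 relative to Cox6a1 changed by 0.19 and -0.10 on the log2 scale, with 95% counting intervals of -0.03 to 0.41 and -0.31 to 0.11, both of which span 0.

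Cox4i2 and Ndufa4l2 are forms known as HIF targets, and the study's theme is HIF-1α. Cox4i2 had 6 and 10 UMIs in the non-efferocytic and 9 and 20 UMIs in the efferocytic libraries (0.059, 0.072, 0.072 and 0.13 CPM), and Ndufa4l2 had 2 and 0 against 2 and 3 UMIs, with a highest level of 0.0198 CPM. A count of 0 allows up to 0.0193 to 0.0296 CPM per library (3 UMIs), so Ndufa4l2 was at or under this limit, and neither gene passed the filter for the test. Cox7b2, Cox8b and Cox8c had no UMI in any of the 4 libraries.

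**Figure D3:**
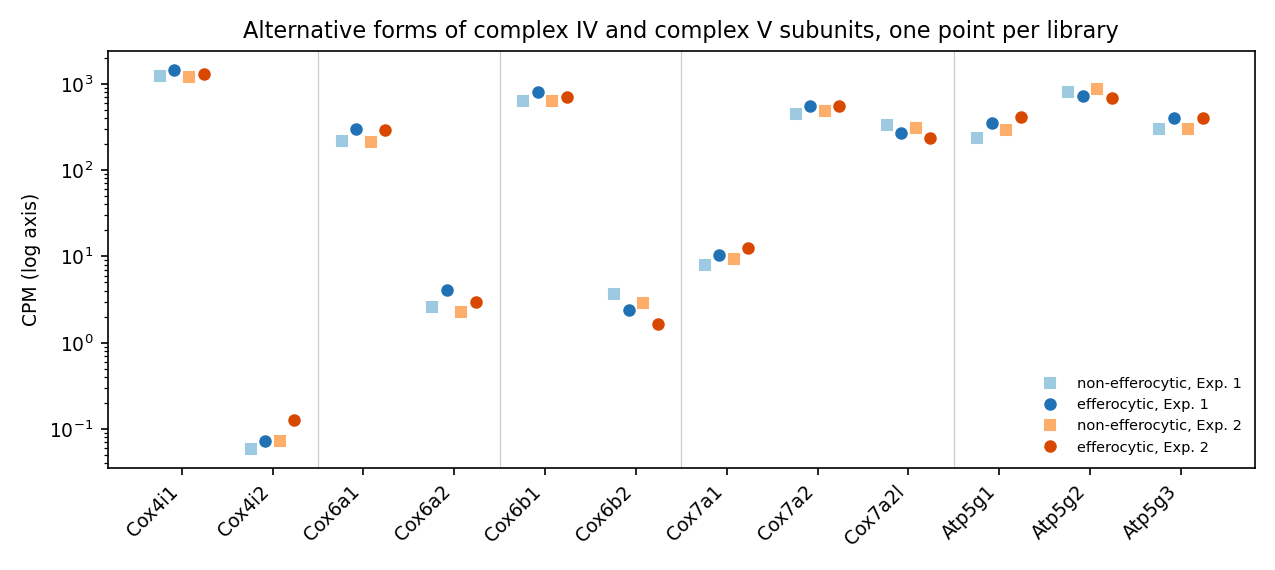
CPM (log axis) of the alternative forms of subunits IV, VIa, VIb and VIIa of complex IV and of subunit c of complex V, with 1 point per library. Atp5g1 and Atp5g3 lie higher and Atp5g2 and Cox7a2l lower in both efferocytic libraries in CPM (in UMIs per cell their log2 fold changes are above 0 but below the median of all genes), and Cox4i2 stays below 0.2 CPM.

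Of the 8 nuclear members whose CPM was lower in both experiments, Uqcrh, Cox7a2l, Atp5g2 and Cox6b2 are described above. The others, named after their values were seen, were Uqcrfs1, the Rieske iron-sulphur subunit of complex III (157 and 143 against 138 and 122 CPM), the complex III assembly factor Uqcc3 (104 and 113 against 96.2 and 95.9 CPM) and the complex I accessory subunits Ndufa6 and Ndufb10. None of these 4 passed the test (log2 fold changes -0.10, -0.07, 0.06 and 0.04). The sign of a change depended on the scale. On UMIs per cell, where the efferocytic cells hold more UMIs of most genes (median 0.60), 79 of 81 nuclear members rose, where 49.9% of all genes did, among them Uqcrh (0.38) and Atp5g2 (0.50), with Cox7a2l at 0.39. These 3 genes were below the median of all genes on both scales. With library totals in place of TMM the median of all genes was -0.12, 37 nuclear members rose and 3 fell (13.3% and 26.7% of all genes), Uqcrh and Cox7a2l joining Cox6b2.

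The 13 mt- genes were split in direction. Only mt-Nd1 and mt-Nd2 rose and only mt-Nd6 and mt-Atp8 fell, and the 9 others did not pass the test. This was 15.4% in each direction, against 19.9% and 19.0% of all genes and 29.9% and 14.5% of genes of at least 10 CPM. Their sum was 31519 CPM in non-efferocytic cells, against 29240.5 CPM in efferocytic cells of Experiment 1, and 28497 and 32737 CPM in Experiment 2, log2 ratios of -0.11 and 0.20. The sum therefore went in opposite directions in the 2 experiments. The CPM ratio was above 1 for 3 of the 13 genes in Experiment 1 and for 9 in Experiment 2 (33.4% and 43.1% of all genes), with medians of -0.16 and 0.23 on the log2 scale, against 0.27 and 0.18 over the nuclear members and -0.16 and -0.08 over all genes. The mt- median was thus that of all genes in Experiment 1. Genes of at least 10 CPM, a level that 12 of the 13 reached, had medians of -0.06 and 0.03. Against these the mt- median was lower in Experiment 1 and higher in Experiment 2. The mt- and nuclear sums thus parted in Experiment 1 and were both higher in Experiment 2. Efferocytic cells held more UMIs, and in bins of total UMIs (below) the mt- share of Experiment 1 did not fall throughout. The 10 markers of cycling cells split in the same way, with sums of 141 and 113 CPM in Experiment 1 and 138 and 160.4 CPM in Experiment 2 (median log2 ratios -0.15 and 0.35), and their part in the result was not tested. The ratio of mt- to nuclear member UMIs was 1.37 and 1.07 in Experiment 1 and 1.16 and 1.22 in Experiment 2 (log2 changes -0.36 and 0.07). These levels are bounded from above, since cells with more than 10% mt- UMIs were left out.

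By complex, the mt- genes of complex I summed to 4752 and 4635 CPM in Experiment 1 and to 4347 and 5423 CPM in Experiment 2 (log2 ratios -0.04 and 0.32). Those of complex IV changed by -0.15 and 0.13 and those of complex V by -0.17 and 0.21, and mt-Cytb, the cytochrome b of complex III, by 0.10 and 0.33. In every complex with subunits of both genomes the nuclear ratio was thus the higher one in Experiment 1 and the mt- ratio the higher one in Experiment 2, a pattern of 1 library pair each. Of the 13 genes, 3 had a CPM ratio above 1 in both experiments, 4 below 1 in both and 6 of opposite sign.

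The genes at the start of the mitochondrial coding region rose. mt-Nd1, a core membrane subunit of complex I (chrM:2751-3707, GRCm38), had 1094 and 992 CPM in non-efferocytic cells, against 1199.7 and 1459.7 CPM in efferocytic cells (0.45 ± 0.14, edgeR adjusted p = 0.031). mt-Nd2, a further core subunit (chrM:3914-4951), had 926 and 764 against 978 and 1208 CPM (0.48 ± 0.15, edgeR adjusted p = 0.034). For both the change in Experiment 1 was the smaller one (0.13 and 0.08, against 0.56 and 0.66). The calls were absent without the block, with genes under 10 CPM removed before scaling, with 10% of UMIs removed as free RNA and without any of the libraries other than the efferocytic one of Experiment 1.

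The 3 catalytic core subunits of complex IV, which are among the most abundant members, did not pass the test. mt-Co1 had 8902 and 6989.6 CPM in non-efferocytic cells, against 8065 and 7029.7 CPM in efferocytic cells (0.04, edgeR adjusted p = 0.87). mt-Co2 had 5374 and 4741 against 4993 and 5609 CPM (0.18, edgeR adjusted p = 0.43), and mt-Co3 4054 and 3659 against 3505 and 4198 CPM (0.10, edgeR adjusted p = 0.65). All 3 were lower in Experiment 1 and higher in Experiment 2, as was mt-Nd3, a small core subunit of complex I, with 284 and 273 against 236 and 373 CPM (0.20, edgeR adjusted p = 0.31). mt-Cytb had 2939.9 and 3239 against 3141 and 4081 CPM (0.32, edgeR adjusted p = 0.12).

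mt-Nd6, a complex I subunit, alone among the 13 lies on the other strand (chrM:13552-14070, minus strand) and overlaps the end of mt-Nd5 by 14 bases. It had 11.8 and 9.84 CPM in non-efferocytic cells, against 8.00 and 6.07 CPM in efferocytic cells and fell (-0.52 ± 0.10, edgeR adjusted p = 0.0060, and 0.094 per cell). mt-Nd5, a core subunit on the plus strand, had 310.0 and 270.3 against 234 and 213 CPM and missed the threshold (-0.27, edgeR adjusted p = 0.052). Both were lower in both experiments, and their UMI ratio (mt-Nd6 over mt-Nd5) changed by -0.16 and -0.35 on the log2 scale (95% counting intervals -0.28 to -0.04 and -0.48 to -0.23).

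**Figure D4:**
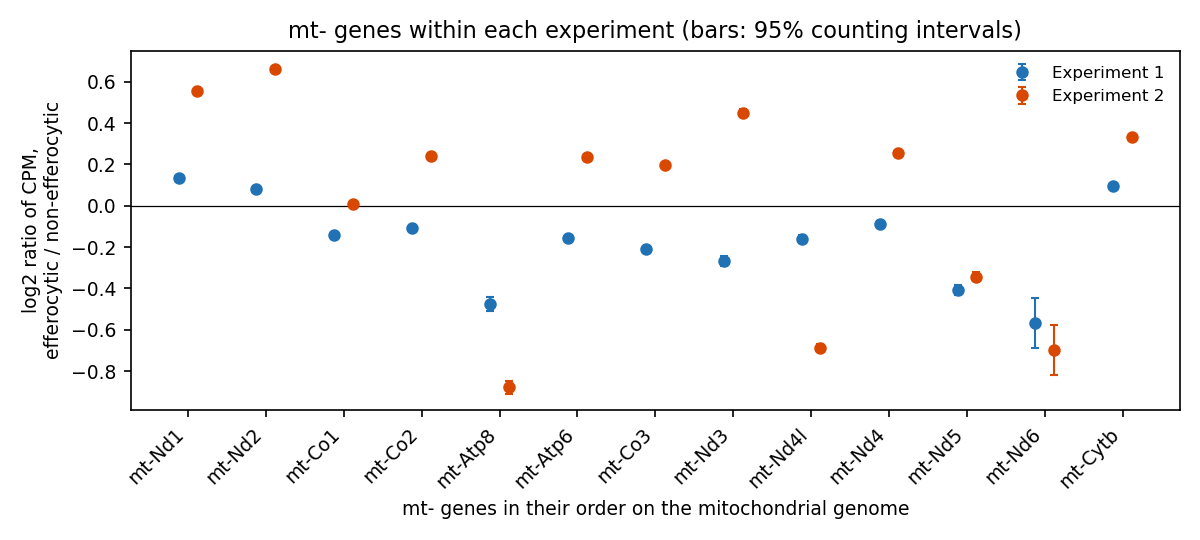
Log2 ratio of CPM (efferocytic over non-efferocytic) of the 13 mt- genes in Experiment 1 and Experiment 2, in their order on the mitochondrial genome, with 95% counting intervals. Only mt-Nd1, mt-Nd2 and mt-Cytb lie above 0 and only mt-Atp8, mt-Nd4l, mt-Nd5 and mt-Nd6 below 0 in both experiments in CPM, the log2 fold changes of the last 4 being above 0 in UMIs per cell, yet below the median of all genes.

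The pairs mt-Atp8 with mt-Atp6 and mt-Nd4l with mt-Nd4 each share a transcript, with the end of the first reading frame overlapping the start of the second. The overlaps are shown because the first and second frame of a pair did not move alike, although they lie on 1 mRNA. Sequences are from the mitochondrial chromosome of GRCm38 with GENCODE vM21 positions, plus strand, and capitals mark the bases that both frames share.
End of mt-Atp8, chrM:7910-7969: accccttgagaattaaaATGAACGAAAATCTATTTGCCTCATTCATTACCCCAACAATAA
Start of mt-Atp6, chrM:7927-7986: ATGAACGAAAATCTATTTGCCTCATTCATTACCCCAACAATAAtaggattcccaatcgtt
End of mt-Nd4l, chrM:10114-10173: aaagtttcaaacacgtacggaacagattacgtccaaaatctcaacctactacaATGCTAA
Start of mt-Nd4, chrM:10167-10226: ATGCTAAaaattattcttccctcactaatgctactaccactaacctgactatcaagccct

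mt-Atp8 and mt-Atp6, membrane subunits of complex V, overlap by 43 bases. mt-Atp8, the first frame, had 158 and 152 CPM in non-efferocytic cells, against 113 and 82.9 CPM in efferocytic cells and fell (-0.57 ± 0.12, edgeR adjusted p = 0.0077, and 0.049 per cell). mt-Atp6, the second frame, had 5339.8 and 5369.8 against 4788 and 6314 CPM and did not pass the test (0.15, edgeR adjusted p = 0.53). For 100 UMIs of mt-Atp6 there were 2.95 and 2.84 UMIs of mt-Atp8 in non-efferocytic and 2.37 and 1.31 in efferocytic cells. The ratio changed by -0.32 and -1.11 on the log2 scale (95% counting intervals -0.35 to -0.29 and -1.14 to -1.08), which no scaling of libraries can move.

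mt-Nd4l and mt-Nd4, subunits of complex I, overlap by 7 bases and showed the same order. mt-Nd4l had 413 and 465 CPM in non-efferocytic cells, against 369 and 289 CPM in efferocytic cells (-0.32, edgeR adjusted p = 0.12). mt-Nd4 had 1713 and 1572 against 1610.1 and 1874 CPM (0.19, edgeR adjusted p = 0.30). For 100 UMIs of mt-Nd4 there were 24.1 and 29.6 UMIs of mt-Nd4l in non-efferocytic and 22.9 and 15.4 in efferocytic cells, a log2 change of -0.07 and -0.94 (95% counting intervals -0.09 to -0.05 and -0.96 to -0.92). In both pairs the first frame lost ground in both experiments and far more in Experiment 2. The file headers name Cell Ranger 3.0.0 for Experiment 1 and 3.1.0 for Experiment 2, and the part of this difference was not tested. The 3′ chemistry captures the poly(A) end of a transcript, which lies beyond the second frame, so UMIs of the first frame are not a count of transcripts, and how reads within the overlaps were assigned was not tested. On UMIs per cell mt-Nd4l and mt-Nd5 were at 0.30 and 0.35, so that the 4 genes that were lower in both experiments were above 0 on that scale but below the median of all genes.

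Single cells gave the same picture as the sums. The median cell spent 2.26% of its UMIs on nuclear members in non-efferocytic and 2.68% in efferocytic cells of Experiment 1 (interquartile ranges 2.03% to 2.49% and 2.40% to 2.94%), and 2.41% and 2.66% in Experiment 2 (2.13% to 2.70% and 2.38% to 2.90%). For mt- genes the medians were 3.16% and 2.84% in Experiment 1 and 2.78% and 3.24% in Experiment 2. With each cell of at least 5000 UMIs thinned to 5000, the nuclear medians were 2.26%, 2.68%, 2.44% and 2.66%, and the mt- medians 3.18%, 2.88%, 2.86% and 3.26%, in the same order of libraries. These medians are over the 7181, 6151, 10007 and 7903 cells that were deep enough. Thinning draws UMIs at random within a cell and leaves its expected share unchanged, so it cannot show whether depth played a part.

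In bins of total UMIs, the nuclear share was higher in efferocytic cells in all 6 bins of Experiment 1 and in 4 of 6 bins of Experiment 2. In the bin of 40000 UMIs or more of Experiment 2 the shares were nearly equal, with 2.746% and 2.755% over 38 and 237 cells. Among cells of 10000 to under 20000 UMIs the nuclear share was 2.30% and 2.66% in Experiment 1 and 2.47% and 2.64% in Experiment 2. The bins of 1000 to under 2500 and of 5000 to under 10000 UMIs went the other way in Experiment 2, with 2.34% against 2.25% and 2.38% against 2.32%. From 2500 UMIs up the nuclear share rose with depth in every library. From the bin of 2500 to under 5000 to that of 20000 to under 40000 UMIs it went from 1.94% to 2.37% and from 2.04% to 2.53% in the non-efferocytic libraries. In the efferocytic ones it went from 2.25% to 2.79% and from 2.20% to 2.73%. Efferocytic cells held more UMIs, and the part of depth in the nuclear increase was not tested. The mt- share fell with depth above 10000 UMIs in every library. In Experiment 1 it was lower in efferocytic cells in 4 of 6 bins, the exceptions being those of 5000 to under 10000 UMIs (3.86% and 4.16%) and of 10000 to under 20000 UMIs (3.08% and 3.24%). These 2 exceptions held 28.6% and 46.2% of the non-efferocytic cells and 12.2% and 40.9% of the efferocytic cells. Most cells of Experiment 1 thus lay in bins where the mt- share was higher in efferocytic cells, unlike the sum. The part of depth in the mt- sums was not tested. In Experiment 2 the mt- share was higher in 4 of 6 bins and lower in those of 1000 to under 2500 UMIs (2.40% and 2.16%) and of 2500 to under 5000 UMIs (4.74% and 4.58%).

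**Figure D5:**
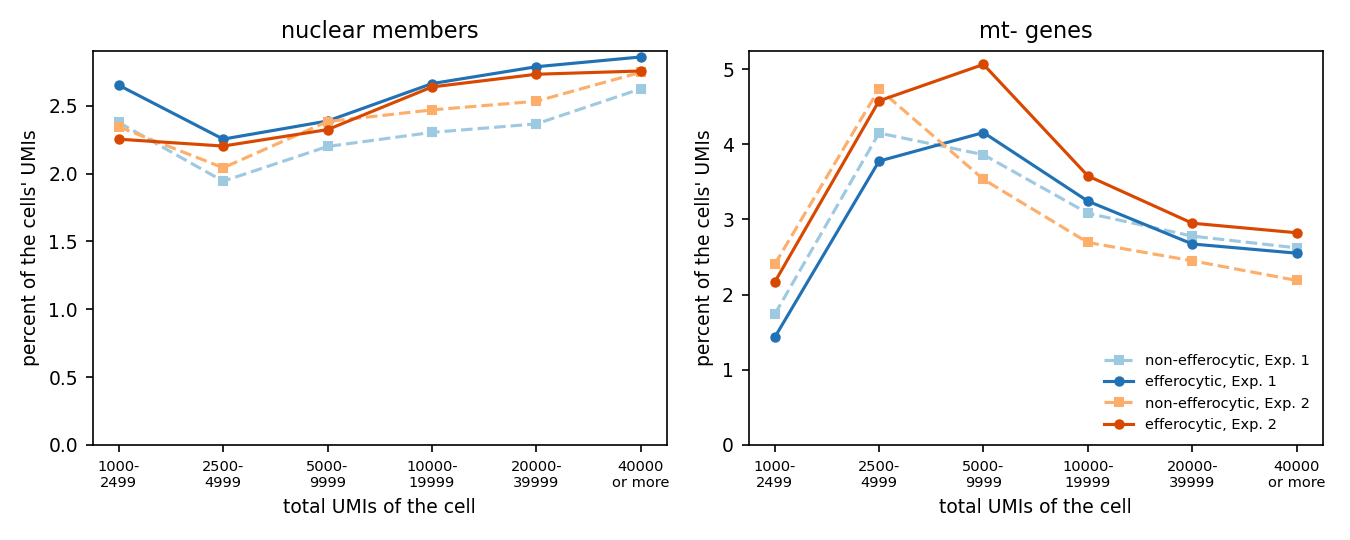
Percent of UMIs in nuclear members (left) and mt- genes (right) over the cells of each bin of total UMIs, for the 4 libraries. From 10000 to under 40000 UMIs the nuclear share of efferocytic cells is higher within each experiment. From 2500 UMIs up the nuclear share of every library rises with depth, and above 10000 UMIs the mt- share declines.

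The sums were also taken without cells that held markers of other cell types. Over cells without a UMI of any marker of another cell type, the nuclear sum had log2 ratios of 0.25 and 0.13 and 37 nuclear members rose (17.8% of all genes). This filter kept 40.8% of the cells of the non-efferocytic library of Experiment 2, against 70.0% to 74.3% in the others. Without the barcodes that libraries shared, the ratios were 0.25 and 0.13 and 44 rose (19.5% of all genes).

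The other genes around the complexes, in lists chosen by function, gave a background to the subunits. Their counts stand beside the 19.9% of all genes that rose and the 19.0% that fell (29.9% and 14.5% of genes of at least 10 CPM). Of 5 further subunits or close partners that the rule missed, 4 rose: Ndufab1, the acyl carrier subunit of complex I (0.54), Cyc1, cytochrome c1 of complex III (0.51), Usmg5 (0.52) and 2010107E04Rik (0.38). Atpif1, the inhibitor of the ATP synthase, had 694 and 839 against 769 and 821 CPM and did not pass the test (0.17, edgeR adjusted p = 0.30). The electron carriers and coenzyme Q genes had 12 of 21 higher and 2 lower, with a median of 0.40. Cycs, cytochrome c itself, rose from 98.1 and 106 CPM to 164 and 195 CPM (0.92 ± 0.09, edgeR adjusted p = 2.5e-04). Coq3, a methyltransferase of coenzyme Q synthesis, rose by 0.86, while Coq8a and the sulphide oxidase Sqor fell (-1.11 and -0.36).

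In the list for the tricarboxylic acid cycle, which feeds complexes I and II, 15 of 20 genes rose and none fell (median 0.33). Idh3a, a subunit of isocitrate dehydrogenase, led (0.83). Next came Mdh1 (0.49), the cytosolic malate dehydrogenase, which the list holds although it lies outside the mitochondrial cycle. Over all the lists, 69 of 167 genes tested rose and 9 fell. In the list of assembly factors chosen for complex I, 10 of 18 rose and none of that list fell (median 0.36). Ndufaf6 (0.60) and Ndufaf7 (0.54) were in front. The other assembly lists are short or had shares of higher genes not far from that of all genes. For complexes II and III, 1 of 7 rose, which was Sdhaf3 (0.31). For complex IV, 6 of 24 rose and 1 fell (median 0.22), Higd1a (0.60) and Cox10 (0.53), a haem synthesis enzyme, rising and Surf1 falling (-0.40). In the list chosen for complex V, 2 of 6 rose, Tmem70 (0.29) and Tmem242 (0.22), and Dmac2 fell (-0.47). Foxred1 stands both in this list and in that for complex I. Whether Dmac2 belongs with complex V was not checked.

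Of the genes that copy, transcribe and process mitochondrial DNA, 8 of 27 rose and 2 fell, with a median of 0.16. Of all genes 19.9% rose, and of genes of at least 10 CPM 29.9%, a level that 14 of the 27 reached. Lrpprc (0.60), which stabilises mitochondrial mRNA, and Tbrg4 (0.42) rose, and Polg2 (-0.62) and Mterf4 (-0.30) fell. Of the carriers and pores of the membrane, all of at least 10 CPM, 3 of 11 rose, a share no higher than among all genes of that level, among them the ADP/ATP carrier Slc25a5 (0.57) and the phosphate carrier Slc25a3 (0.36). Among 17 regulators, 8 rose and 3 fell. Epas1, which encodes HIF-2α, had 16.3 and 14.1 CPM in non-efferocytic cells, against 41.2 and 47.9 CPM in efferocytic cells (1.66 ± 0.10, edgeR adjusted p = 5.1e-05). Hif1a had 58.5 and 51.6 against 42.3 and 45.4 CPM and did not pass the test (-0.22, edgeR adjusted p = 0.065). By RT-qPCR of unsorted co-cultures, the study reported a small decrease of Epas1 mRNA and an increase of Hif1a mRNA, unlike these sorted cells. Myc rose (1.18), and Tfeb (-0.29), Tfe3 (-0.28) and Nrf1 (-0.27) fell. The study describes RM1 as induced by Ras and Myc, and the part of engulfed RM1 RNA in the Myc change was not tested. Epas1 and Myc, like Cycs and Higd1a above, are on gene lists the study drew from these libraries, so their increase is not independent evidence. Of 12 genes of cytosolic ribosomes and translation, taken as short abundant mRNAs for reference, none rose or fell by the edgeR test (median -0.08). Whether any list stood apart from other genes was not tested.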

How the data were processed

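Reads of the 10x 3′ chemistry were aligned to mm10 by the authors with Cell Ranger, and the deposited values are unnormalized UMI counts for each gene in every barcode, unfiltered. The labels name Cell Ranger 3.0.0 and Seurat 3.1, and the headers of Experiment 2 name Cell Ranger 3.1.0. Each mRNA molecule gives 1 tag near its 3′ end, so the counts were not divided by length.

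Each library was 1 sample, with the counts of its cells added up. All genes were tested in 1 fit with edgeR 4.0.16 in R 4.3.3 (filterByExpr, TMM, quasi-likelihood test, experiment as a block, Benjamini-Hochberg adjustment, threshold 0.05), and DESeq2 1.42.0 was run beside it. The block was used because the study compared groups within experiments, and libraries of the same experiment deviated together (correlation 0.799 over 7097 genes). The code was tested on simulated data. CPM are UMIs per 1000000 UMIs of the library's cells, without TMM. The TMM factors were 1.04 and 1.04 in the non-efferocytic and 0.94 and 0.99 in the efferocytic libraries of Experiments 1 and 2. They shift the log2 fold changes upward relative to the CPM ratios. Intervals are exact (Clopper-Pearson). Each SE is the absolute log2 fold change divided by the square root of the quasi-likelihood F statistic. That statistic pools spread over genes, so the SE is not an error from the libraries of 1 gene alone. Summed levels got no test, since the members are not replicates. Doublets were not called. The cells with the most UMIs were left out as an alternative.

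Symbols were matched to GENCODE vM21 (GRCm38) for positions and to RefSeq (GRCm38.p6) for promoters. Named with values are the 13 mt- genes, the Sdh genes, all alternative forms and members on the study's lists. In each other complex they are also the 3 nuclear members of highest mean CPM. Added to these are the 2 largest changes among called nuclear members of at least 10 CPM with 1 sign in both experiments. In each further list they are the 2 called genes of at least 1 CPM that changed most in either direction. The members, lists and tests were chosen with earlier results of these data known. The alternatives were no block, DESeq2, library totals or UMIs per cell, other filters on genes, cells and mt- UMIs, thinning to 5000 UMIs, removal of 10% of UMIs as free RNA, and each library left out. Leaving out barcodes that libraries share was added after seeing the data.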

Additional observations from a re-analysis of the deposited data

Results flagged for a closer look

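Barcodes above the limit of 10% mt- UMIs were not used for any value above, and they were more frequent in efferocytic than in non-efferocytic libraries. Of the barcodes with at least 200 genes and 1000 UMIs, 7.57% lay above the limit in the efferocytic and 4.51% in the non-efferocytic library of Experiment 1. In Experiment 2 they were 5.40% and 4.72%. These barcodes were shallow, with a median of 1423 to 1869.5 UMIs, against 9600 to 17475.5 in the cells kept. Above 50% mt- UMIs there were 279 barcodes in the efferocytic and 92 in the non-efferocytic library of Experiment 1, and 109 and 2 in Experiment 2. Nuclear members took 1.36% to 1.51% of the UMIs of the barcodes left out. With no limit on mt- UMIs, the log2 ratio of the summed mt- genes was -0.05 in Experiment 1 and 0.21 in Experiment 2, and 44 nuclear members rose (19.1% of all genes). The difference between the groups in the share of such barcodes has 1 library per group in each experiment and was not tested.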

How the results depend on the processing

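Each count below is of members higher or lower in efferocytic cells, and each log2 fold change is efferocytic over non-efferocytic. The shares of all genes that rose and fell are given for each setting, and were 19.9% and 19.0% in the fit reported. Without the replicate block (the experiment), 9.27% and 7.74% of all genes rose and fell, 24 nuclear members rose and 0 fell (45 and 1 with it), 0 mt- genes rose and 0 fell (2 and 2), and of complexes I to IV 11, 1, 2 and 2 nuclear members rose (20, 3, 6 and 7), with 0 lower in complex IV (1). Of the genes in the further lists 32 rose and 3 fell (69 and 9). At an unadjusted p under 0.05 there were 50 nuclear members and 4 mt- genes without the block. With DESeq2 (14.2% and 10.2% of all genes), 0 nuclear members fell, in complex IV also 0. With library totals (13.3% and 26.7%), 3 nuclear members fell (1 in complex III, 2 in complex IV), 1 of complex II rose, 4 mt- genes fell, and 44 list genes rose and 18 fell.

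On UMIs per cell (49.9% and 4.23% of all genes) 79 nuclear members rose and 0 fell (36, 11, 12 and 16 in complexes I, III, IV and V, and 0 lower in complex IV), 9 mt- genes rose and 0 fell, and 141 list genes rose and 0 fell. On that scale the mean log2 ratios of the sums were 0.83 for all members, 0.91 for nuclear members (0.92, 0.86, 0.86, 0.89 and 0.94 for complexes I to V) and 0.77 for mt- genes (0.87, 0.94, 0.72 and 0.75 for complexes I, III, IV and V). The median of all genes rose from -0.02 to 0.60 on that scale, so the construction itself turned signs, with values that stayed below this median, among the genes named by the rule for Atp5g2 (0.50), Uqcrh (0.38), Cox7a2l (0.39), mt-Atp8 (0.049), mt-Nd4l (0.30), mt-Nd5 (0.35), mt-Nd6 (0.094), Dmac2 (0.15), Mterf4 (0.32), Sqor (0.26), Surf1 (0.21), Tfe3 (0.34) and Tfeb (0.33).

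With genes under 10 CPM removed (20.8% and 21.9%), 28 nuclear members (1, 3 and 2 in complexes II, III and IV), 0 mt- genes and 37 list genes rose. With 10% of UMIs removed as free RNA (9.98% and 7.65%), 21 nuclear members rose and 0 fell (9, 1, 2 and 3 in complexes I to IV, and 0 lower in complex IV), 0 mt- genes rose and 0 fell, and 34 list genes rose and 4 fell. In cells without other markers (17.8% and 17.7%) 3 members of complex III and 1 mt- gene rose, and after thinning (17.2% and 17.2%) 3 members of complex III rose and 4 mt- genes fell. Leaving out 1 library in turn (0.0% to 11.5% and 0.0% to 8.86% of all genes), 0 to 20 nuclear members rose and 0 to 1 fell (complexes I to V 0 to 9, 0 to 1, 0 to 1, 0 to 3 and 0 to 6, and 0 to 1 lower in complex IV), 0 to 2 mt- genes rose and 0 to 3 fell, and 0 to 37 list genes rose and 0 to 7 fell. The fits without either non-efferocytic library gave 0 members and 0 genes higher. These fits had no block, and the lone library of a group was assumed to vary like the others.

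Signs near 0 also turned, all of them in members that did not pass the test: Sdhb (-0.048 with totals, -0.036 with genes under 10 CPM removed, -0.059 thinned), Cox8a (-0.057, -0.045 and -0.039 in the same settings), mt-Co1 (-0.067 with totals, -0.055 with genes under 10 CPM removed, -0.024 in cells without other markers) and mt-Co3 (-0.0057 with totals). In fits that left out 1 library, Cox8a ranged from -0.015 to 0.13, Sdhb from -0.036 to 0.16, mt-Atp6 from -0.012 to 0.31, mt-Co1 from -0.12 to 0.23 and mt-Nd3 from -0.089 to 0.50. The causes of these changes were not tested. Leaving out mt- UMIs gives no value for mt- genes, and leaving out 1 library gives none for the sums within an experiment. No member row carried the symbol Atp5sl, and rows under another symbol for it were not looked for. Each group had 2 libraries, and a count of 0 allows 0.0193 to 0.0296 CPM.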

Other observations

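Barcodes of at most 100 UMIs, which hold RNA outside cells, gave nuclear members 2.32% and 2.61% of their UMIs in the non-efferocytic libraries of Experiments 1 and 2, and 2.61% and 2.67% in the efferocytic ones. The cells of the same libraries gave them 2.30%, 2.45%, 2.73% and 2.68%. The mt- genes took 6.23% and 6.90% of the UMIs of these barcodes in the non-efferocytic and 4.58% and 6.97% in the efferocytic libraries.

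Per cell, nuclear members had means of 281 and 253 UMIs in non-efferocytic and 510 and 494 UMIs in efferocytic cells, and mt- genes 385 and 294 against 546 and 604. Ppargc1a, which encodes a coactivator of respiratory gene transcription, was at 0.040 and 0.043 CPM in the non-efferocytic and at 0.112 and 0.187 CPM in the efferocytic libraries (log2 fold change 1.95 ± 0.52 SE, edgeR adjusted p = 0.020), on counts of 4 to 29 UMIs per library. It is also on gene lists the study drew from these libraries, so its increase is not independent evidence.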
